A study of Mus musculus with 16 samples.

Results

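The genes described here are 38 mouse genes that carry sugars into cells, run glycolysis and its reversal, split fructose and pass lactate across the membrane. They were picked by name and role, with earlier results of these data known, and 37 of the 38 had a row among the 21640 genes of the count table. Pklr, the pyruvate kinase of liver and red cells, had no row there. Pfkm, Pgam2, Eno3, Fbp2 and Slc2a4, which skeletal muscle is known to express strongly, were set apart at 6 weeks. Thyroids came from WT C57Bl/6J mice that entered the diets at 8 weeks of age. Controls ate chow (CD), and the others received high-fat food and sucrose in their water (HF+SD), for 3 or 6 weeks. Each group held 4 mice with 1 library per mouse, and library totals were 30025256 to 48508653 counts. The study's account of the CD group after 6 weeks has fewer mice than there are libraries and does not name the mouse left out, so all 4 were used here. The question was which sugar handling genes differed with the diet in thyroid tissue, and whether that difference changed with the time on it.

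Cells take up glucose through transporters of the SLC2A family and trap it with a hexokinase. Phosphofructokinase then commits it to glycolysis, while fructose bisphosphatase reverses that step on the path to new glucose. Isoforms of the same enzyme are split between tissues, so thyrocytes, fat cells and muscle fibres of a whole gland contribute different members of a family.

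Levels are in CPM, counts relative to the library total after trimmed-mean scaling of the libraries, and a difference is the fitted log2 CPM of HF+SD minus CD with its standard error (SE). A gene is called at an adjusted p under 0.05 from edgeR's quasi-likelihood test, with adjustment over every gene tested. Mice are listed in a fixed order. At 3 weeks the order is M53, M54, M55 and M96 in CD mice and M7, M19y, M20y and M31 in HF+SD mice. At 6 weeks it is M22, M43, M45 and M48 in CD mice and M5, M18, M34 and M35 in HF+SD mice. With 4 mice against 4, the exact permutation test on log2 CPM gives p = 0.0286 at its smallest (two-sided), and that value holds for each member whose groups do not overlap.

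The tissue behind the libraries differed in ways that touch these genes. The 12 thyrocyte genes, Tg among them, were all detected in each library and took 27.3% to 30.8% of the counts at 3 weeks and 4.89% to 15% at 6 weeks, and 7 of them were higher in HF+SD mice at each time. The 20 skeletal muscle genes took 0.000814% to 0.00709% of the counts at 3 weeks. At 6 weeks they took 3.59%, 15.2% and 11% in CD mice M43, M45 and M48, against 0.0959% in CD mouse M22 and 0.116% to 0.42% in HF+SD mice. In M22, 19 of the 20 were above 0 and Myh7 was at 0. Of the 4 brown adipocyte genes (Ucp1, Cidea, Elovl3, Cox8b), all 4 were lower in HF+SD mice at 3 weeks, and all 3 that could be tested were lower at 6 weeks. Their summed share was 0.0147% to 0.0305% in CD mice and 0.00171% to 0.00921% in HF+SD mice at 3 weeks, and 0.0465% to 0.0789% against 0.00236% to 0.00974% at 6 weeks. Elovl3 was at 0 in 1 HF+SD mouse at 3 weeks and in 3 at 6 weeks. Of 6 white adipocyte genes, 4 were lower at 3 weeks and 5 at 6 weeks, and of 5 endothelial genes 4 were higher at each time. In such bulk samples, fewer cells of a type and less RNA per cell cannot be told apart.

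At 3 weeks, 9 of the 36 members tested passed, 3 higher and 6 lower in HF+SD mice. Over all 17238 genes tested, 9.07% were called higher and 5.78% lower. The median difference was 0.00 over the members and -0.01 over all genes. The calls lay at the entry of the pathway (Slc2a3, Slc2a4, Hk2), at phosphofructokinase and aldolase (Pfkm, Aldoc), at its reversal (Fbp1, Fbp2) and at lactate (Ldha, Slc16a1). At 6 weeks, 13 of the 32 members outside the muscle isoforms passed, 3 higher and 10 lower, beside 12.0% higher and 9.55% lower over 18249 genes. Their median difference was -0.46 and that of all genes -0.01. Of the 5 muscle isoforms, 4 were lower. The difference passed at both times for Slc2a3, Slc2a4, Hk2, Ldha and Slc16a1, which were lower, Fbp1, which was higher, and Pfkm, of opposite sign. The share of all genes called at both times was not computed, so whether that is many for such a list cannot be said.

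**Figure D1:**
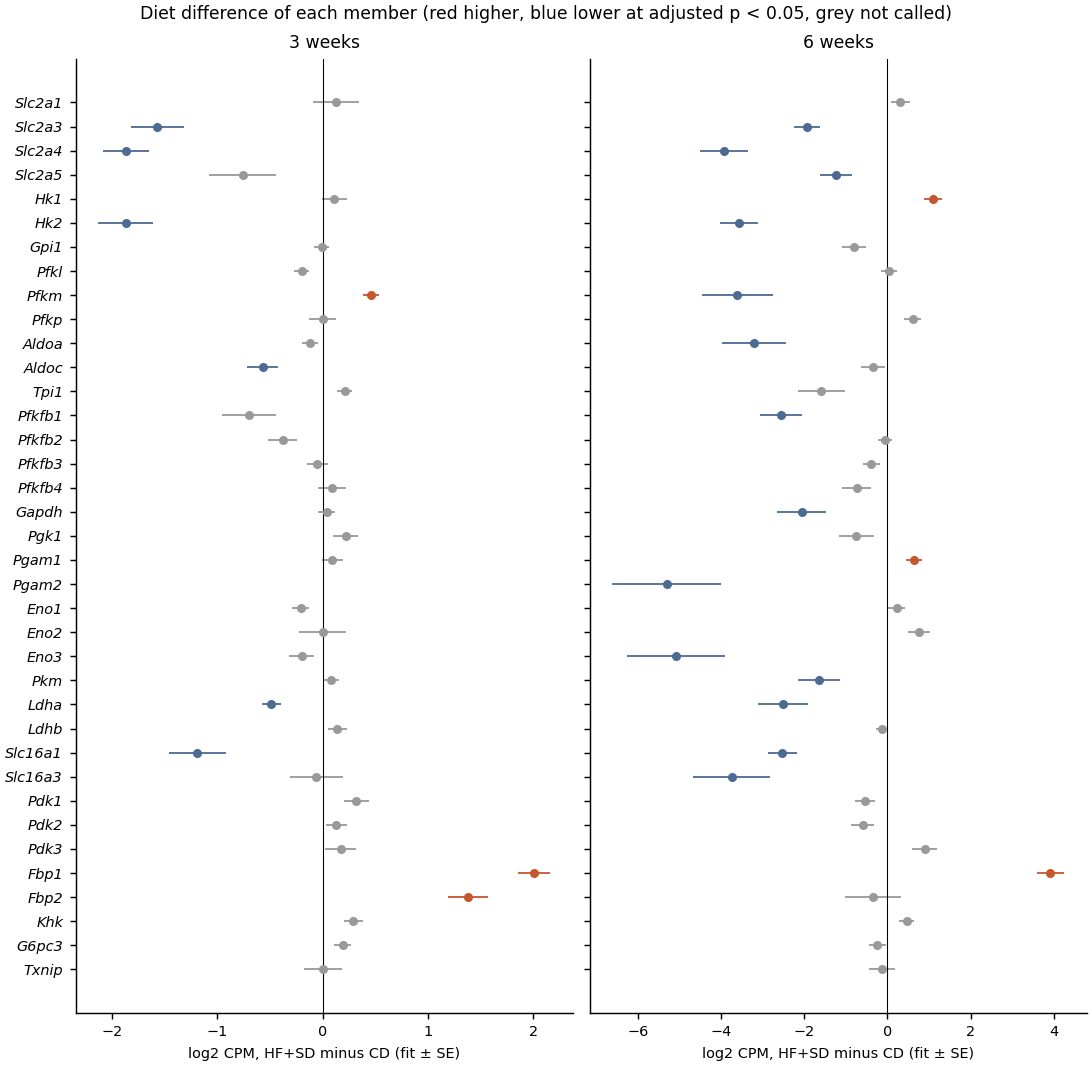
Differences of each tested member at 3 weeks (left) and 6 weeks (right), as the fitted log2 CPM of HF+SD minus CD with SE, in the order of their roles; the 2 panels have different scales. At 3 weeks most members sit near 0 while Slc2a3, Slc2a4 and Hk2 lie below -1.5 and Fbp1 at 2.01, and at 6 weeks the range widens from -5.31 for Pgam2 to 3.92 for Fbp1.

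Fbp1 encodes the fructose bisphosphatase of liver and kidney, which removes a phosphate from fructose 1,6-bisphosphate. It had the lowest adjusted p of the 38 at each time. At 3 weeks it read 27.9, 31.6, 29.7 and 18.9 CPM in CD mice and 101, 107, 118 and 110.4 CPM in HF+SD mice. The lowest HF+SD mouse was more than 3 times the highest CD mouse. The means were 27.0 ± 5.63 and 109 ± 7.29 CPM (SD, n = 4 each), 4.03-fold, with a log2 difference of 2.01 (SE 0.15, adjusted p = 0.000155). After 6 weeks, CD mice had 19.1, 25.5, 9.65 and 13.2 CPM and the HF+SD mice 232, 286, 310.3 and 195 CPM. No mouse of either diet came near the other group. The means were 16.9 ± 6.95 and 256 ± 52.0 CPM (SD, n = 4 each), 15.2-fold, with a log2 difference of 3.92 (SE 0.33, adjusted p = 0.000189).

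The call was then set against the tissue differences. With a muscle score, the mean log2 CPM of the muscle genes, as a covariate, the difference of Fbp1 was 2.33 at 3 weeks and 3.56 at 6 weeks (adjusted p = 6.90e-05 and 0.00128). A fit against M22 alone, the CD mouse of 6 weeks with few muscle counts, has no spread among CD mice. Only sizes of difference are given from it gene by gene. The difference of Fbp1 against M22 alone was 3.74. Scaled to 9 thyrocyte genes instead of all genes, it was 1.69 and 3.10 (adjusted p = 7.39e-05 and 0.000197). Under that scaling the all-gene median lay lower, by -0.33 at 3 weeks and by -0.90 at 6 weeks. With any 1 of the 8 mice of a time left out, the difference of Fbp1 was 1.87 to 2.10 and 3.72 to 4.17 and the call held. With a brown adipocyte score as a covariate, described further on, it was 1.89 and 3.76 without a call (adjusted p = 0.147 and 0.466).

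Fbp2, the muscle fructose bisphosphatase, lies next to Fbp1 in the order of genes on the chromosome. At 3 weeks, when muscle genes were scarce in each library, it read 2.25, 3.22, 4.11 and 3.17 CPM in CD mice and 8.36, 6.60, 9.64 and 8.5 CPM in HF+SD mice. The groups did not overlap. The means were 3.19 ± 0.760 and 8.28 ± 1.25 CPM (SD, n = 4 each), 2.60-fold, with a log2 difference of 1.38 (SE 0.19, adjusted p = 0.00186). At 6 weeks the CD mice spread from 1.81 (M22) over 10.6 (M43) and 20.8 (M48) to 35.4 CPM (M45), in the order of their muscle shares. The HF+SD mice had 9.89, 9.41, 18.9 and 15.8 CPM and lay inside that spread, with a log2 difference of -0.35 (SE 0.67, adjusted p = 0.747). The sign turned when the muscle score was a covariate, to 2.18 (adjusted p = 0.0225), and against M22 alone it was 2.89. Per kilobase of exon, Fbp1 was the larger of the pair in HF+SD mice at 64.1 against 5.63 CPM per kb at 3 weeks and 150 against 9.18 at 6 weeks.

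Khk, the fructokinase that starts fructose breakdown, and G6pc3, a glucose 6-phosphatase of most tissues, did not pass at either time. Khk read 33.1 ± 3.58 and 40.3 ± 2.05 CPM (SD, n = 4 each) at 3 weeks (log2 difference 0.29, SE 0.09, adjusted p = 0.0589) and 36.0 ± 7.43 and 50.0 ± 8.98 CPM at 6 weeks (0.47, SE 0.18, adjusted p = 0.0975). At 3 weeks Khk did pass with DESeq2 (0.28, adjusted p = 0.0332) and with the muscle score (0.41, adjusted p = 0.0363). It did not after scaling to thyrocyte genes (-0.04, adjusted p = 0.753) or with the brown adipocyte score (0.46, adjusted p = 0.420). G6pc3 differed by 0.19 (SE 0.08) and -0.24 (SE 0.21).

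Promoter windows are shown for the members whose called difference at 3 weeks exceeded 1 in size, since these moved with little muscle RNA present. Of the 6 such members, 4 have an entry in the RefSeq table of windows from 250 bases before to 50 after a start (GRCm38.p6, a build other than that of the counts), and 36 of the 38 members have an entry there, with 56 windows in all. The windows are chr13:62888233-62888532 (minus strand) for Fbp1, chr13:62858351-62858650 (minus) for Fbp2, chr6:82774405-82774704 (minus) for Hk2 and chr3:104638414-104638713 (plus) for Slc16a1, each read 5′ to 3′ on the strand of its gene. Capitals mark ACGTG or its reverse complement CACGT, searched on both strands and overlapping in CACGTG.
Fbp1: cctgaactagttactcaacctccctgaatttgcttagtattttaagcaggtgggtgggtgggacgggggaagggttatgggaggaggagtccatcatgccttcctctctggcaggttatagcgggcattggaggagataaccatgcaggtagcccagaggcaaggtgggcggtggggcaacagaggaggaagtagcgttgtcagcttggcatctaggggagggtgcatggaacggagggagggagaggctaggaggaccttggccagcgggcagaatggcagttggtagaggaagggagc
Fbp2: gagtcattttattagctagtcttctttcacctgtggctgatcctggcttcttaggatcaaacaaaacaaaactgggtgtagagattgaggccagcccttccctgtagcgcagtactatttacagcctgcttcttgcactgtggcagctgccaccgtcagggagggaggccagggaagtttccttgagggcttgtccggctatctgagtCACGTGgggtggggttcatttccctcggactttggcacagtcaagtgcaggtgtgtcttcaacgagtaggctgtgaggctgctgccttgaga
Hk2: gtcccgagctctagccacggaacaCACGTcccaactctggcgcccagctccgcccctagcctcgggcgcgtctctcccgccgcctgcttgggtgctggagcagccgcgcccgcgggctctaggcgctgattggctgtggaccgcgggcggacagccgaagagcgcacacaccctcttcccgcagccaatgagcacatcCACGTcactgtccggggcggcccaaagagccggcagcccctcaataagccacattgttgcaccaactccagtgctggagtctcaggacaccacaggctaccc
Slc16a1: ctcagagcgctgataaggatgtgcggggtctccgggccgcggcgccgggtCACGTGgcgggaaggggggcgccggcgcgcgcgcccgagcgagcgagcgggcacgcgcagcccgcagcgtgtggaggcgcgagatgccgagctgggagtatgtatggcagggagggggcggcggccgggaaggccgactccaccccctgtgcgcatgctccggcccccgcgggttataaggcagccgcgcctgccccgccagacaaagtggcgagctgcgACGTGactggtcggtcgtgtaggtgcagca
The Fbp1 window, of the member with the largest rise, holds no match. Fbp2 rose at 3 weeks and its window holds CACGTG, as does that of Slc16a1, which fell. Over the list, ACGTG or its complement stands in 24 of 56 windows (42.9%) and in 19.6% of all 32851 windows of the table. CACGTG stands in 16.1% and 7.15%, and the GC box GGGCGG or its complement CCGCCC in 50% and 35.7%. TGACG or its complement CGTCA stands in 21.4% and 20.8%, the palindrome TGACGTCA that contains both in 1.79% and 1.79%, and TATAAA or its complement TTTATA in 7.14% and 13.6%. A match describes these letters and is not a binding site.

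The transporters divided by isoform. Slc2a4, the insulin-regulated glucose transporter of fat and muscle, read 14.4, 19.6, 15.4 and 27.9 CPM in CD mice at 3 weeks and 5.84, 4.97, 6.02 and 4.31 CPM in HF+SD mice. The groups were well apart, at 19.3 ± 6.15 and 5.28 ± 0.795 CPM (SD, n = 4 each), 3.65-fold lower, with a log2 difference of -1.87 (SE 0.22, adjusted p = 0.000778). After 6 weeks, CD mice had 22.4, 55, 180.2 and 122 CPM and the HF+SD mice 7.28, 6.27, 4.74 and 6.39 CPM. Even M22 stood above each HF+SD mouse. The difference was -3.94 (SE 0.58, adjusted p = 0.00224), -2.25 given the muscle score (adjusted p = 0.000743) and -1.86 against M22 alone.

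Slc2a3, a high-affinity glucose transporter best known from neurons, followed the same course at lower levels. It read 5.67, 3.92, 7.69 and 7.95 CPM in CD mice and 1.91, 2.28, 2.66 and 1.65 CPM in HF+SD mice at 3 weeks. The groups did not overlap, with a 2.97-fold lower mean and a log2 difference of -1.57 (SE 0.25, adjusted p = 0.00337). At 6 weeks the values were 5.77, 9.87, 17.2 and 10.3 against 3.22, 2.85, 2.56 and 2.63 CPM, again apart. The difference was -1.93 (SE 0.31, adjusted p = 0.00319), and -1.23 with the muscle score (adjusted p = 0.00820). Against M22 alone it was -1.04.

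Slc2a5, the fructose transporter, was scarce. At 6 weeks it read 1.21, 2.83, 0.877 and 1.11 CPM in CD mice and 0.738, 0.596, 0.523 and 0.698 CPM in HF+SD mice, 2.36-fold lower with no overlap (log2 difference -1.24, SE 0.38, adjusted p = 0.0467). With the muscle score the difference was -1.27 but the adjusted p rose to 0.139. At 3 weeks it was -0.76 (SE 0.32, adjusted p = 0.142). Slc2a1, the glucose transporter of most cells, did not pass, at 48.5 ± 20.2 and 53.2 ± 1.74 CPM at 3 weeks and 26.6 ± 9.99 and 32.9 ± 2.95 CPM at 6 weeks (SD, n = 4 each).

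Summed over Slc2a1, Slc2a3 and Slc2a4 and taken per kilobase of exon, Slc2a1 made up 67.0% ± 10.7 (SD, n = 4) of these transporter transcripts in CD mice and 89.3% ± 1.69 (SD, n = 4) in HF+SD mice at 3 weeks. The CD mice spanned 54.5% to 80.4% and the HF+SD mice 87.7% to 91.6%. At 6 weeks its part was 10.3% to 62% in CD mice and 80.3% to 83.1% in HF+SD mice.

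Hk2, the hexokinase of muscle and fat, read 16.3, 16.6, 25.3 and 28.4 CPM in CD mice at 3 weeks and 8.28, 5.81, 5.79 and 3.83 CPM in HF+SD mice. The groups did not overlap. The means were 21.7 ± 6.10 and 5.93 ± 1.83 CPM (SD, n = 4 each), 3.65-fold lower, with a log2 difference of -1.87 (SE 0.26, adjusted p = 0.00164). After 6 weeks, CD mice had 34.8, 56.1, 119.7 and 95.5 CPM and the HF+SD mice 10.9, 5.55, 3.66 and 5.56 CPM. The CD values rose with the muscle share of the mouse, yet the lowest of them, in M22, stayed above each HF+SD mouse. The difference was -3.57 (SE 0.46, adjusted p = 0.00120), -2.60 with the muscle score (adjusted p = 0.000951) and -2.44 against M22 alone.

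Hk1, the hexokinase of most tissues, read 117 ± 18.1 and 126 ± 12.4 CPM (SD, n = 4 each) at 3 weeks, a log2 difference of 0.11 (SE 0.12, adjusted p = 0.560). At 6 weeks it read 35.1, 19.3, 17.0 and 20.8 CPM in CD mice and 49.4, 52.6, 51.1 and 45.5 CPM in HF+SD mice, all above the CD. The difference was 1.10 (SE 0.22, adjusted p = 0.00890) and 0.72 with the muscle score (adjusted p = 0.0176). It was at 0.50 against M22 alone and 0.25 after scaling to thyrocyte genes (adjusted p = 0.270). Per kilobase, Hk2 held 20.7% ± 3.68 of the pair in CD mice and 6.38% ± 2.19 in HF+SD mice at 3 weeks, and 79.2% ± 14.4 and 15.3% ± 6.22 at 6 weeks (SD, n = 4 each), without overlap at either time.

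**Figure D2:**
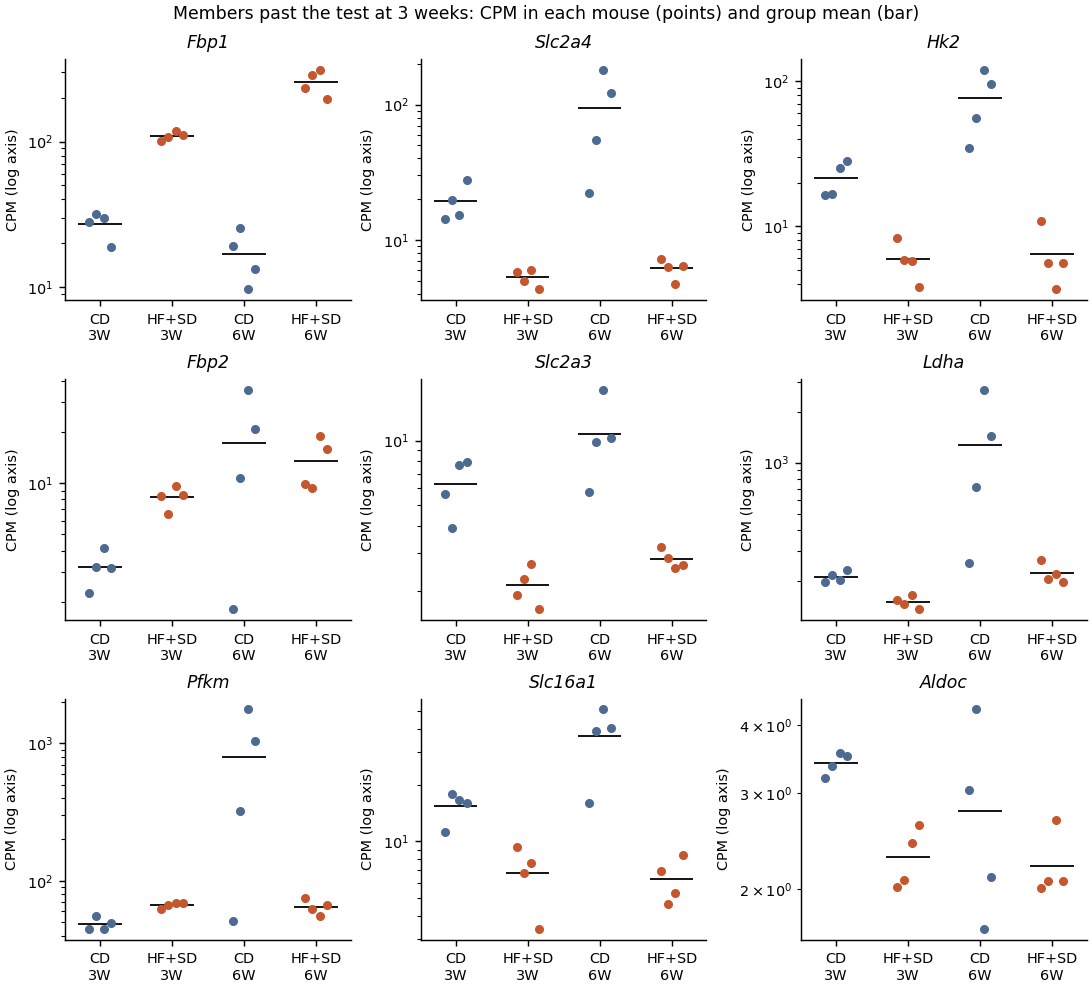
CPM on a log axis for the 9 members past the test at 3 weeks, with 1 point per mouse and a bar at the mean, for CD (blue) and HF+SD (red) at both times. Fbp1 is higher in all HF+SD mice at each time, Slc2a4, Hk2, Slc2a3 and Slc16a1 are lower in all of them, and the CD mice of 6 weeks spread widely in Pfkm, Ldha and Fbp2.

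Between glucose 6-phosphate and the triose phosphates, 7 members were tested. Of the 3 phosphofructokinase isoforms, 1 passed at 3 weeks. Pfkm, the muscle isoform that other tissues also make, read 44.9, 55.3, 44.9 and 49.1 CPM in CD mice and 62.7, 67.1, 69.3 and 68.6 CPM in HF+SD mice. Each HF+SD mouse was above each CD mouse, 1.38-fold at the means, with a log2 difference of 0.46 (SE 0.08, adjusted p = 0.00653). After scaling to thyrocyte genes it was 0.14 (adjusted p = 0.217), so the call depends on that scale. Pfkl, the liver isoform, fell short of a call at -0.20 (SE 0.07, adjusted p = 0.0755), and Pfkp, the platelet isoform, was at 0.00 (SE 0.13). Per kilobase, Pfkm made up 40.8% ± 3.20 of the 3 isoforms in CD mice and 51.0% ± 1.13 in HF+SD mice (SD, n = 4 each), with ranges of 36.6% to 44.2% and 49.3% to 52%. At 6 weeks Pfkm read 51.3, 320.1, 1761 and 1041 CPM in CD mice and 75.3, 62.0, 55.9 and 67.2 CPM in HF+SD mice. The low CD mouse was again M22, and the high ones were those with muscle counts. The difference was -3.61 (SE 0.86, adjusted p = 0.0185), -0.42 with the muscle score (adjusted p = 0.398) and 0.34 against M22 alone.

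Aldoc, the brain aldolase, was scarce and lower at 3 weeks, at 3.19, 3.36, 3.55 and 3.50 CPM in CD mice and 2.02, 2.07, 2.43 and 2.62 CPM in HF+SD mice. The groups did not overlap, with a log2 difference of -0.57 (SE 0.15, adjusted p = 0.0297). The call was lost without any 1 of 5 mice (M53, M96, M7, M19y, M20y) and given the muscle score (adjusted p = 0.0956), and at 6 weeks the difference was -0.34 (SE 0.29, adjusted p = 0.441). Aldoa, the aldolase of muscle and most tissues, did not pass at 3 weeks (-0.12, SE 0.08, adjusted p = 0.339). At 6 weeks it read 764, 3309, 16714 and 9125 CPM in CD mice and 987, 731, 687 and 813 CPM in HF+SD mice. M22 lay among the HF+SD mice. The difference was -3.22 (SE 0.77, adjusted p = 0.0193), -0.55 with the muscle score (adjusted p = 0.223) and 0.07 against M22 alone. A second identifier that also carries the symbol Aldoa was at 0.257 to 1.02 CPM at both times and is not counted here.

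Gpi1, the isomerase after hexokinase, and Tpi1, the triose phosphate isomerase, did not pass at either time. Gpi1 read 293 ± 16.7 and 290.1 ± 7.21 CPM (SD, n = 4 each) at 3 weeks, with a difference of -0.01 (SE 0.07). Tpi1 was at 0.21 (SE 0.07, adjusted p = 0.0781) with HF+SD mice all above CD mice. At 6 weeks the differences were -0.80 (SE 0.29) and -1.59 (SE 0.56).

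The PFKFB enzymes make and break fructose 2,6-bisphosphate, the switch between glycolysis and its reversal. None of the 4 passed at 3 weeks, with differences from -0.70 for Pfkfb1 to 0.09 for Pfkfb4 and adjusted p-values of 0.100 and more. At 6 weeks Pfkfb1, the isoform of liver and muscle, read 7.92, 15.6, 47.5 and 32.6 CPM in CD mice and 3.43, 4.11, 4.33 and 5.64 CPM in HF+SD mice. All HF+SD mice were below M22, the lowest CD mouse. The difference was -2.56 (SE 0.50, adjusted p = 0.00832), -1.18 with the muscle score (adjusted p = 0.0392) and -0.86 against M22 alone. Pfkfb2, Pfkfb3 and Pfkfb4 stood at -0.06, -0.39 and -0.74 without a call.

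The steps from glyceraldehyde 3-phosphate to pyruvate had no call at 3 weeks. None of the 7 members tested passed, and their differences ran from -0.21 for Eno1 to 0.22 for Pgk1 with adjusted p-values of 0.108 and more. Gapdh read 470.3 ± 37.2 and 485 ± 17.4 CPM and Pkm, the pyruvate kinase of most tissues, 481 ± 39.4 and 509 ± 9.71 CPM (SD, n = 4 each). Pgam2, the muscle phosphoglycerate mutase, was too scarce to be tested, at 0.222 and 0.246 CPM.

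At 6 weeks 5 of 8 passed. Pgam1, the mutase of most tissues, was higher at 31.5, 34.1, 19.6 and 21.4 CPM in CD mice and 44.8, 43, 39.3 and 38.6 CPM in HF+SD mice. There was no overlap, with a log2 difference of 0.64 (SE 0.19, adjusted p = 0.0417), but the direction turned to -0.20 (adjusted p = 0.279) after scaling to thyrocyte genes. Gapdh read 656, 1679.7, 6714 and 3991 CPM in CD mice and 848, 795, 733 and 751 CPM in HF+SD mice. M22 was below each HF+SD mouse and the other 3 CD mice above. Its difference of -2.06 (SE 0.59, adjusted p = 0.0362) became -0.17 with the muscle score (adjusted p = 0.753) and 0.25 against M22 alone. Pkm repeated the pattern at 299.7, 586, 2105 and 1194 against 346, 345, 338 and 307 CPM. Its difference of -1.65 (SE 0.50, adjusted p = 0.0452) became -0.16 with the muscle score (adjusted p = 0.778) and 0.15 against M22 alone.

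The muscle isoforms of these steps showed the widest ranges. Eno3, the muscle enolase, read 39.5, 849, 4984 and 2601 CPM in CD mice and 117, 35.5, 35.7 and 60.7 CPM in HF+SD mice, a difference of -5.09 (SE 1.18, adjusted p = 0.0174). With the muscle score it was -0.63 (adjusted p = 0.0496), and against M22 alone 0.65. Pgam2 read 5.31, 187, 1097 and 643 CPM in CD mice and 27.3, 5.58, 5.70 and 10.1 CPM in HF+SD mice. M22 was the lowest of all 8 mice. Its difference of -5.31 (SE 1.31, adjusted p = 0.0210) became -0.34 with the muscle score (adjusted p = 0.360) and 1.19 against M22 alone.

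**Figure D3:**
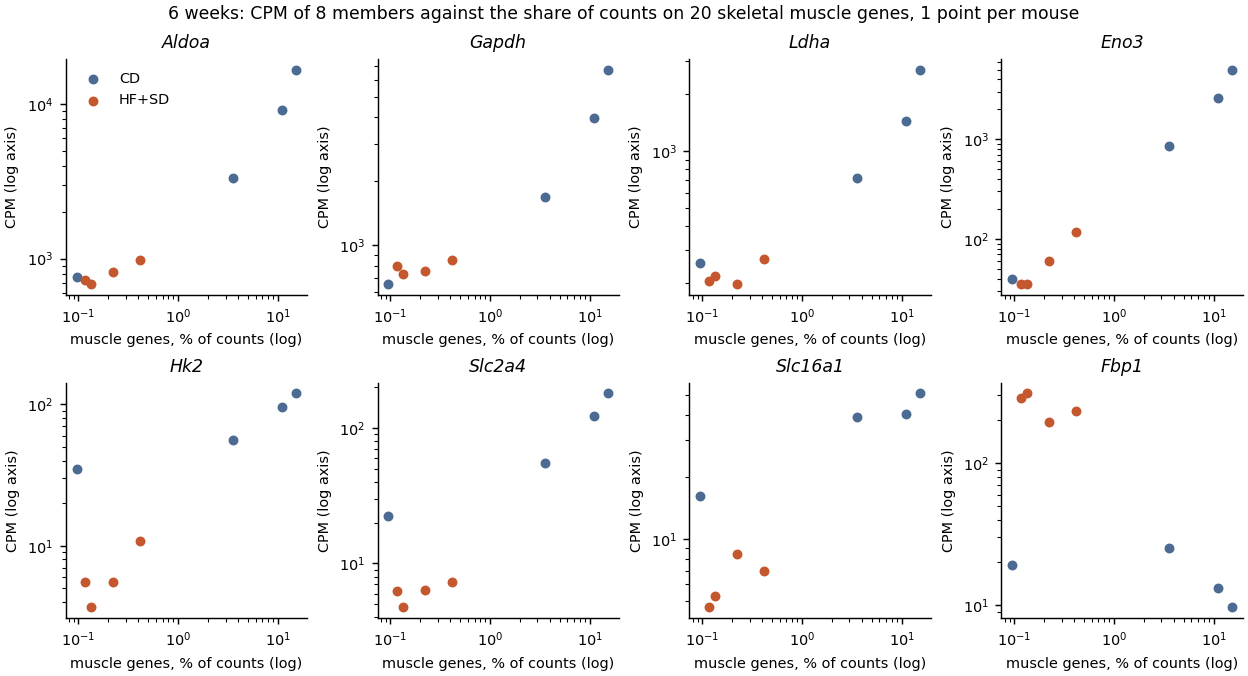
CPM of 8 members at 6 weeks (log axis) against the percentage of counts on 20 skeletal muscle genes (log axis), with 1 point per mouse, CD in blue and HF+SD in red. Aldoa, Gapdh, Ldha and Eno3 of M22 (0.0959% muscle counts) lie with the HF+SD mice, while its Hk2, Slc2a4 and Slc16a1 lie above them and its Fbp1 below.

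Of the 4 lactate genes, Ldha and Slc16a1 were lower at 3 weeks, and Slc16a3 as well at 6 weeks. Ldha, the lactate dehydrogenase subunit that favours lactate, read 197, 216, 204 and 232 CPM in CD mice at 3 weeks and 154, 147, 166 and 137 CPM in HF+SD mice. The groups did not overlap, at 1.41-fold lower, with a log2 difference of -0.49 (SE 0.09, adjusted p = 0.00538). Ldhb, the subunit that favours pyruvate, was at 0.14 (SE 0.09, adjusted p = 0.314). Per kilobase, Ldha was 34.9% ± 2.76 of the pair in CD mice and 25.6% ± 1.09 in HF+SD mice (SD, n = 4 each), with ranges of 32.5% to 38.6% and 24.4% to 26.6%. At 6 weeks Ldha read 256, 717, 2695 and 1446 CPM in CD mice and 268, 205, 219 and 198 CPM in HF+SD mice. M22 lay within the HF+SD range. The difference was -2.52 (SE 0.60, adjusted p = 0.0183), -0.64 with the muscle score (adjusted p = 0.149) and -0.21 against M22 alone.

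Slc16a1, the monocarboxylate carrier MCT1, read 11.3, 17.9, 16.6 and 16.1 CPM in CD mice and 9.33, 6.78, 7.70 and 3.40 CPM in HF+SD mice at 3 weeks. The HF+SD mice were all lower, 2.28-fold at the means, with a log2 difference of -1.19 (SE 0.27, adjusted p = 0.0180). The call was lost without M19y (adjusted p = 0.0504) and given the muscle score (-1.11, adjusted p = 0.0783). At 6 weeks it read 16.1, 39.1, 50.8 and 40.5 against 6.96, 4.64, 5.26 and 8.41 CPM, with no overlap. The difference was -2.53 (SE 0.35, adjusted p = 0.00158), -1.66 with the muscle score (adjusted p = 0.00152) and -1.36 against M22 alone. Slc16a3, the carrier MCT4 of glycolytic muscle, read 0.746, 8.63, 33.2 and 19.4 CPM in CD mice at 6 weeks and 1.77, 0.470, 1.11 and 1.24 CPM in HF+SD mice, with M22 among the latter. Its difference of -3.75 (SE 0.92, adjusted p = 0.0208) became -0.34 with the muscle score (adjusted p = 0.556) and 0.62 against M22 alone. At 3 weeks it was -0.06 (SE 0.25).

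The pyruvate dehydrogenase kinases, which hold pyruvate back from the mitochondrial cycle, did not pass. At 3 weeks Pdk1, Pdk2 and Pdk3 were at 0.32, 0.13 and 0.17, with HF+SD mice all above CD mice for Pdk1. At 6 weeks they were at -0.54, -0.60 and 0.90, with adjusted p-values of 0.0597 to 0.150. Txnip, a glucose-induced gene that dampens glucose uptake, was at 501 ± 137 and 503 ± 49.2 CPM at 3 weeks and 657 ± 241 and 599.5 ± 135 CPM at 6 weeks (SD, n = 4 each). Its differences were 0.00 (SE 0.18) and -0.13 (SE 0.31).

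**Figure D4:**
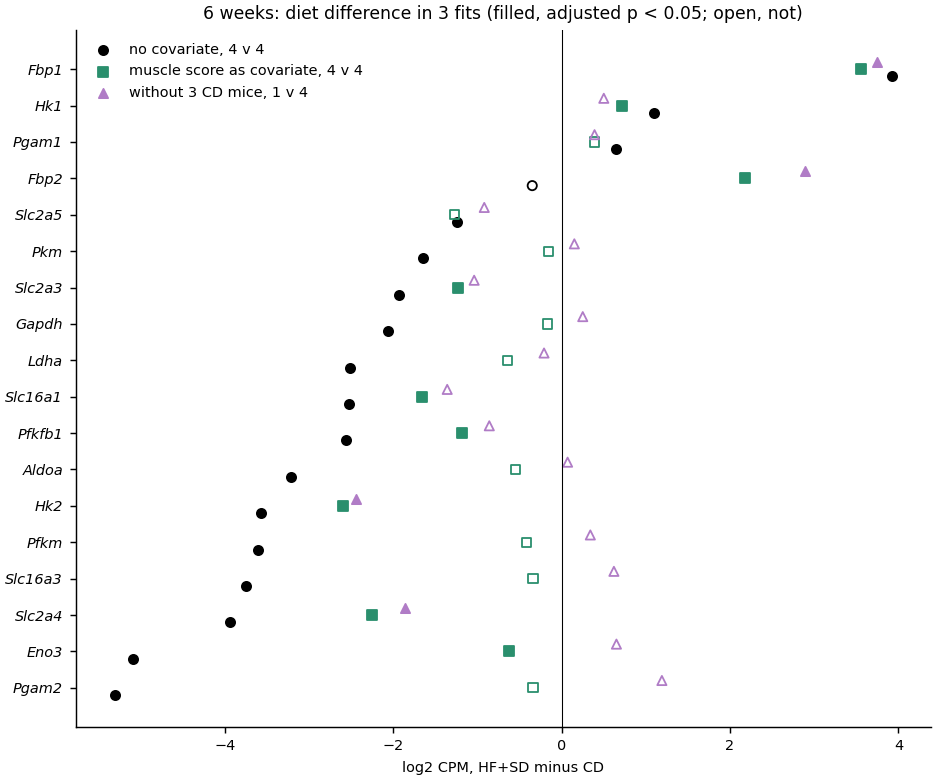
Log2 difference of HF+SD minus CD at 6 weeks in 3 fits for the 17 called members and Fbp2: no covariate (black), muscle score as covariate (green squares) and without the 3 CD mice over 1% muscle counts (purple triangles), filled where the adjusted p is under 0.05. Fbp1, Hk1, Hk2, Slc2a3, Slc2a4, Pfkfb1, Slc16a1 and Eno3 are filled in both the black and the green fit. Aldoa, Gapdh, Pkm, Pgam2 and Slc16a3 come to within 1.2 of 0 in the fits that take muscle into account. The purple fit has M22 as its only CD mouse and no spread among CD mice, so its filling is not read.

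The 6-week calls fell into groups by the place of M22, which describes 1 mouse and is no replicated comparison. M22 is also 1 of the CD mice behind these calls, so its place is partly set by them. Its place over all genes called was not computed. The calls of Aldoa, Eno3, Ldha, Pfkm, Pgam2 and Slc16a3 were lost without M18, M34 or M35 (adjusted p up to 0.0653), and those of Gapdh, Pkm, Pgam1 and Slc2a5 without any 1 of 6 mice (adjusted p up to 0.124). Of the 10 called lower members outside the muscle isoforms, M22 was above each HF+SD mouse in 5, within their range in 3 and below it in 2. Those above were Slc2a3, Slc2a5, Hk2, Pfkfb1 and Slc16a1, the 5 whose groups do not overlap. In the 3 called higher, M22 was below each HF+SD mouse, which follows from their groups not overlapping. Given the muscle score, 6 of the 32 passed, 2 higher (Fbp1, Hk1) and 4 lower (Slc2a3, Hk2, Pfkfb1, Slc16a1), beside 2032 of all 18249 genes. The score was 4.19 in M22, 9.79 to 12.37 in the other CD mice and 4.95 to 6.75 in HF+SD mice. M22 alone thus keeps the score and the diet apart in that fit.

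Brown adipocyte genes were lower beside Hk2, Slc2a3, Slc2a4, Slc16a1 and Ldha at both times, and their share did not overlap between the diets at either time. This was not particular to them. The endothelial share, higher in HF+SD mice, was 0.0289% to 0.0351% against 0.0521% to 0.0756% at 3 weeks. At 6 weeks it was 0.0149% to 0.0274% against 0.0729% to 0.0822%. White adipocyte and C cell shares, lower in HF+SD mice, did not overlap at 3 weeks. No score was fitted for these cell types. With a brown adipocyte score as a covariate, an alternative chosen after the data were seen, the 3-week difference was -0.03 for Slc16a1, -0.17 for Ldha, -0.97 for Slc2a4, -1.20 for Slc2a3 and -1.23 for Hk2. It was 1.89 for Fbp1, 1.32 for Fbp2 and 0.58 for Pfkm. At 6 weeks the same fit gave -2.12 for Slc16a1, -3.16 for Ldha, -3.80 for Slc2a4, -1.99 for Slc2a3 and -4.03 for Hk2, beside -2.53, -2.52, -3.94, -1.93 and -3.57 without the score. No member passed with the score at either time, when 7 of all 17238 genes passed at 3 weeks and 0 of 18249 at 6 weeks, and the score and the diet cannot be told apart in these groups.

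**Figure D5:**
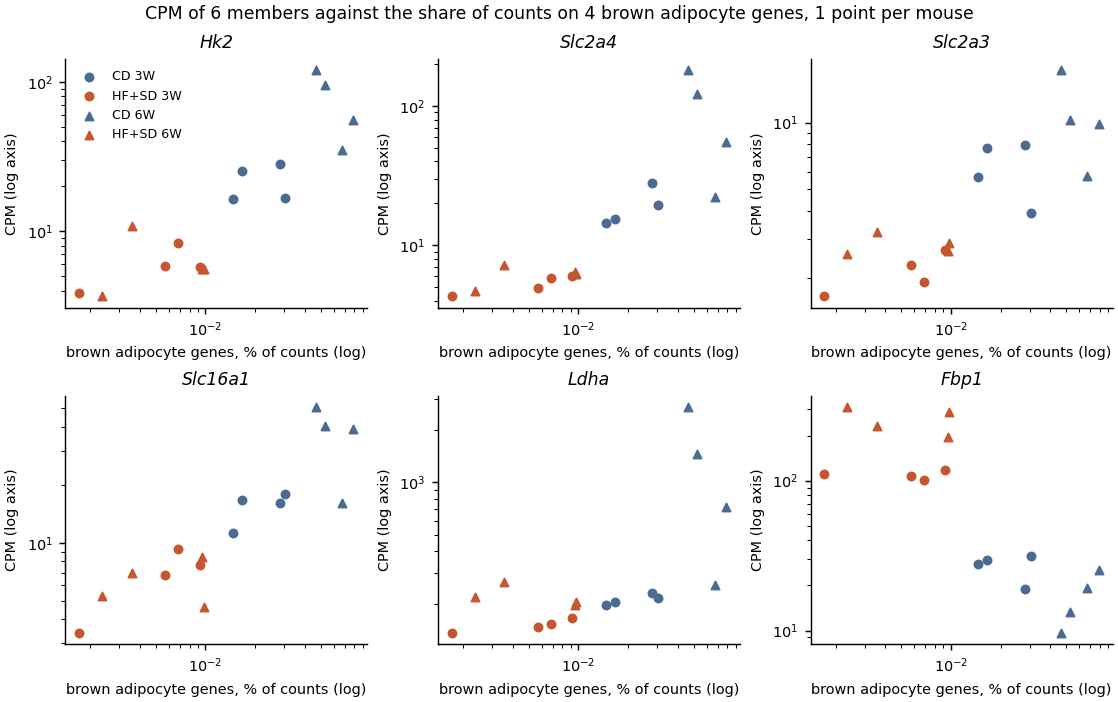
CPM of 6 members (log axis) against the percentage of counts on 4 brown adipocyte genes (log axis), 1 point per mouse, circles for 3 weeks and triangles for 6 weeks, CD in blue and HF+SD in red. The shares of the 2 diets do not overlap at either time, from 0.00171% to 0.00974% in HF+SD mice and from 0.0147% to 0.0789% in CD mice.

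Whether the diet difference itself changed with time was tested in 1 model of all 16 libraries. Fbp1 was the member that passed, with a difference larger by 1.86 at 6 weeks (SE 0.32, adjusted p = 0.0448), where 0.0687% of 18929 genes were called larger and 0.0106% smaller. Pfkm was at -4.15 (SE 0.89, adjusted p = 0.0524) and Eno3 at -4.97 (SE 1.16, adjusted p = 0.0602). Hk2 was at -1.77 (adjusted p = 0.0830), Slc16a1 at -1.40 (adjusted p = 0.103) and Slc2a3 at -0.42 (adjusted p = 0.583). The call of Fbp1 did not hold given the muscle score, where 0 members passed. With 1 mouse left out at a time the count of members was 0 to 16. Without the 3 CD mice over 1% muscle counts, M22 is the only CD mouse of 6 weeks, and no call is read from that fit. The library names of the 2 times carry different leading numbers, so levels were not compared between times.

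Sugar genes outside the 38 were taken from a list of 68, of which 63 had a row. At 3 weeks 18 of 60 tested passed, 8 higher and 10 lower, beside 9.07% higher and 5.78% lower over all genes, and 4 of them were lower by more than 1. Mlxipl, the sugar-responsive transcription factor ChREBP, read 24.4 ± 4.14 and 7.12 ± 1.36 CPM (SD, n = 4 each), a difference of -1.78 (SE 0.17, adjusted p = 0.000366). Gys2, the liver glycogen synthase that fat also makes, was at -2.47 (SE 0.51, adjusted p = 0.0121). Pck1 and Pcx, which lead pyruvate towards new glucose and glycerol in liver and fat, were at -1.22 (adjusted p = 0.0305) and -1.02 (adjusted p = 0.000682). Among gluconeogenic genes, Fbp1 was thus higher and Pck1 and Pcx lower.

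At 6 weeks 31 of 59 passed, 7 higher and 24 lower, beside 12.0% higher and 9.55% lower over all genes. Lower genes with differences beyond -2 included Pdk4 at -3.50, Gys2 at -3.41, Phka1 at -3.36, Pygm at -3.25, Mlxipl at -2.95, Phkg1 at -2.90, Slc2a12 at -2.64, Gyg at -2.24 and Ugp2 at -2.10. Of these, Pygm, Phka1, Phkg1, Gyg, Ugp2 and Gys2 make or break glycogen, and M22 lay within or below the HF+SD range in the first 5 and above it in Gys2. Pdk4 of M22, at 46.6 CPM, lay within it too. M22 stood above each HF+SD mouse in Mlxipl, at 32.5 CPM against 4.45 to 5.51, in Gys2, at 4.13 against 0.145 to 0.618, and in Slc2a12.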

How the data were processed

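Poly(A) RNA of 16 thyroids was sequenced, 1 library per mouse, and the labels give each library its own mouse. The authors deposited raw counts per gene for 21640 genes and a normalized signal, namely those counts divided by 1 size factor per library. The submitters' notes name Trim Galore 0.6.7, STAR, DESeq2 1.36.0, R 4.1.0 and build mm39. For the counting program, the annotation and the use of strand, the answer is not given in the sources used here. Reads of near-identical copies may be split. Copies of Eno1, Pgk1, Pgam1, Ldha and Aldoa with a row of their own were at 1.30 CPM or less. GENCODE M21 was used for names (20841 of 21640 identifiers) and exon lengths only, since its build differs.

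Counts were tested within each time with edgeR 4.0.16 in R 4.3.3: TMM, filterByExpr by group, glmQLFit, glmQLFTest and Benjamini-Hochberg adjustment over all genes tested. SE is the size of the log2 difference divided by the square root of F. CPM carries the TMM factors, log2 CPM a prior count of 2. Pairs of mice within a group differed by a chi-square of 15.1 to 871 per gene (genes of at least 20 counts), far above sampling noise, so each library counts as a sample. Counting error is small at these depths except for scarce members, such as Slc2a5 with 18 to 28 counts per HF+SD mouse at 6 weeks. The spread between mice was 18.2% at 3 weeks and 31.2% at 6 weeks (biological coefficient of variation). The code was tested on simulated data with 200 genes changed. Of 2-fold changes it recovered 95% at 3 weeks and 19% at 6 weeks, and of 4-fold changes 100% and 99%. Every simulated gene had the same spread and CD mice did not differ in muscle, so these percentages need not hold for the real data. A missing call at 6 weeks therefore does not show that a gene was unchanged. Alternatives were DESeq2 1.42.0, its size factors in edgeR, no filter beyond 1 count, limma 3.58.1 on log2 of the deposited signal plus 1, scaling to 9 thyrocyte genes, a muscle score as a covariate, 1 fit of all 16 libraries, a minimum log2 difference of 1, leaving out the CD mice with over 1% muscle counts, and leaving out each mouse in turn. A brown adipocyte score as a covariate, and the time comparison without those CD mice, were added after the data were seen.

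The members and all gene lists were chosen with earlier results of these data known. Values of each mouse are given for members called at 3 weeks or, outside the muscle isoforms, at 6 weeks (at most 15 per time), and for the muscle isoforms. Other pathway genes are named past a log2 difference of 1, at most 10 per time. Some genes that this rule names are not reported here.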

Additional observations from a re-analysis of the deposited data

Results flagged for a closer look

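In 7 of 146 groups of 4 mice tested, 1 mouse stood apart from the other 3 by Dixon's test at the 95% level, which chance alone flags in about 1 of 20 groups. At 3 weeks on the CD, M55 was high in Slc2a1 (78.7 CPM against 36.4 to 40.8) and in Pfkfb2 (43.5 against 29.2 to 29.7) and low in Pdk1 (48.6 against 68.7 to 72.4). M96 of that group was high in Slc2a5 (2.06 CPM against 0.874 to 0.903). At 6 weeks on the CD, M43 was high in Slc2a5 (2.83 CPM against 0.877 to 1.21), and M22, the mouse with few muscle counts, was low in Txnip (298 CPM against 749.7 to 816). On the HF+SD, M34 was high in Aldoc (2.68 CPM against 2.00 to 2.07).

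The diet difference of Fbp1 was larger at 6 weeks than at 3 weeks by 1.86 on the log2 scale (edgeR interaction term, SE 0.32, adjusted p = 0.0448), with all HF+SD mice above all CD mice at both times. The call did not hold with the muscle score or the brown adipocyte score as a covariate.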

How the results depend on the processing

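At 6 weeks the count of 13 members outside the muscle isoforms became 25 after scaling to thyrocyte genes (1 higher, 24 lower). That scaling called 12573 of all 18249 genes. The count was 22 in 1 fit of all 16 libraries (6182 genes) and 6 with the muscle score (2032 genes). It was 0 with the brown adipocyte score as a covariate (0 genes). DESeq2 kept each of the 13 and added Gpi1, Pfkp, Tpi1, Eno2 and Pdk3 (5157 genes). Without the 3 CD mice over 1% muscle counts, the lone CD mouse is assumed to vary like the HF+SD mice. Calls of that fit are therefore not counted. Leaving out each mouse gave 6 to 20 (6 without M18, M34 or M35, 20 without M22). The 4 muscle isoforms became 1 with limma, 0 with the brown adipocyte score and 1 to 4 with each mouse left out. With the muscle score Slc2a4 and Eno3 stayed called lower, Pfkm and Pgam2 were lost, and Fbp2 was called higher. At 3 weeks the count of 9 became 14 with DESeq2 (5 higher, 9 lower, with 3701 of 17238 genes called). It was 17 after thyrocyte scaling (2 higher, 15 lower, 7638 genes) and 5 in the fit of all 16 (1420 of 17232 genes). It was 0 with the brown adipocyte score (7 of 17238 genes) and 7 to 14 with each mouse left out (14 without M55). Requiring a log2 difference above 1 left 6 members. For diet by time the count of 1 became 12 with DESeq2 (1790 of 18929 genes called) and 12 after thyrocyte scaling (2321 genes). It was 0 with either score (1 gene in each fit) and 0 to 16 with each mouse left out. Among members called in either fit, signs turned at 6 weeks after thyrocyte scaling for Pfkl (-0.82), Pgam1 (-0.20) and Eno1 (-0.64). With the muscle score the sign turned for Fbp2 (2.18). Without those CD mice, signs turned for the called members Pfkm (0.34), Aldoa (0.07), Gapdh (0.25), Pgam2 (1.19), Eno3 (0.65), Pkm (0.15) and Slc16a3 (0.62). The sign of Fbp2 (2.89), not called with all mice, turned there too. Signs of members called in neither fit turned as well, also at 3 weeks and with the brown adipocyte score. At 6 weeks these were Slc2a1 (-0.55), Pfkp (-0.24), Eno2 (-0.05) and Khk (-0.40) after thyrocyte scaling, and Tpi1, Pgk1, Txnip, Slc2a1 and Pfkl with the muscle score (0.20, 0.53, 0.61, -0.03 and -0.29) and without those CD mice (0.61, 0.89, 1.00, -0.33 and -0.34). Apart from the fewer mice in the fits that leave some out, the cause was not tested. No paired analysis was possible because each mouse carries its own number.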

Other observations

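Among the other sugar genes, 3 that the rule for naming did not pick were chosen after their values were seen. Sord, the sorbitol dehydrogenase that yields fructose, was at 391 ± 89.7 and 638 ± 10.6 CPM (SD, n = 4 each) at 3 weeks (log2 difference 0.70, SE 0.15, adjusted p = 0.0119) and at 330.5 ± 91.8 and 631 ± 101 CPM at 6 weeks (0.93, SE 0.22, adjusted p = 0.0192), with no overlap at either time. Slc2a6, a transporter of the SLC2A family, was at 3.77 ± 1.42 and 9.08 ± 0.909 CPM (SD, n = 4 each) at 6 weeks (1.27, SE 0.25, adjusted p = 0.00900), the single higher gene of that list with a difference above 1. Tkt, the transketolase of the pentose phosphate path, was lower at both times, by -0.84 (SE 0.14, adjusted p = 0.00384) and -1.36 (SE 0.20, adjusted p = 0.00246).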
